A study of Mus musculus with 16 samples.

Results

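The genes of the EGF receptor, Egfr, and of 6 secreted ligands that bind it, Egf, Hbegf, Areg, Ereg, Tgfa and Btc, were followed in mouse kidney after rhabdomyolysis. The members were taken by gene symbol, and all 7 were present among the 20525 genes of the deposited expression matrix. Rhabdomyolysis, the breakdown of skeletal muscle, was induced by 1 intramuscular dose of 50% glycerol (7.5 ml/kg, into the thigh). RNA was sequenced from frozen kidney sections 30 µm thick. The mice were 8 weeks old, on a background written as C56BL/6 in the labels.

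The 4 groups held 4 libraries each: C3-/- mice given glycerol, wild-type (WT) mice given glycerol, C3-/- mice given PBS and WT mice given PBS. C3-/- names a homozygous mutant of complement component C3, and the labels give neither the allele nor the deleted part. C3 transcripts averaged 4137 ± 3189 normalized counts in C3-/- glycerol libraries, 3235 ± 1287 in WT glycerol, 846 ± 236 in C3-/- PBS and 398 ± 61.4 in WT PBS (SD, n = 4 each). The gene's total signal was therefore not lower under the C3-/- label. It cannot check that label without the deleted part, so every direction below between genotypes is one between libraries labelled C3-/- and libraries labelled WT. Sex and the interval from injection to kidney collection are not in the labels. Nothing in them ties each library to its own animal, so the p-values rest on the spread among libraries, part or all of which may be technical.

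The ligands of the EGF receptor are made as membrane-anchored precursors. Cell-surface proteases, ADAM17 and ADAM10 foremost, cut them free, and the released ligand pairs receptor molecules and drives the RAS-ERK and PI3K-AKT relays. The kidney is among the richest sources of the EGF precursor, which is made in the thick ascending limb and the distal convoluted tubule, and EGF signalling supports magnesium uptake by the distal tubule. HB-EGF, amphiregulin and TGF-alpha are made by epithelia under stress, and in mouse models of kidney injury receptor activity has been tied both to tubule repair and to scarring.

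Loci are given on GRCm38 by the GENCODE M21 annotation. Egf is at chr3:129677565-129755316, Tgfa at chr6:86195223-86275719 and Egfr at chr11:16752203-16918158. Ereg (chr5:91074622-91093646), Areg (chr5:91139599-91148432) and Btc (chr5:91357261-91402994) are close neighbours. A gap of 46.0 kb separates Ereg from Areg and a gap of 209 kb separates Areg from Btc. Annotated genes on the opposite strand overlap Egf, Egfr, Tgfa and Ereg. Whether the authors' counting used strand is not given in these sources, so reads from these genes and their antisense partners cannot be told apart.

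The promoter windows of Areg, near 0 in PBS kidneys and present in every glycerol library, and of Egf, the member with the largest fall, are shown for comparison. Each is the 250 bases before the RefSeq start site on GRCm38.p6, read 5′ to 3′ on the gene's own strand, chr5:91139349-91139598 for Areg (plus strand) and chr3:129755323-129755572 for Egf (minus strand). Capitals mark matches to any of 3 motifs searched on both strands: TATAAA (the TATA box core), TGACGTCA (the cyclic AMP response element) and TGANTCA (the AP-1 element), whose matches here do not overlap.
Areg promoter: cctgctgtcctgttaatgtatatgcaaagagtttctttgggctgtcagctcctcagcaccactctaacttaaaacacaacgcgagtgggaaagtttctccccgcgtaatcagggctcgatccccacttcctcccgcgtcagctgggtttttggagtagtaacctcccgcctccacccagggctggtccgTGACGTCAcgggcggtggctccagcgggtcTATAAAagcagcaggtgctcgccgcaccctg
Egf promoter: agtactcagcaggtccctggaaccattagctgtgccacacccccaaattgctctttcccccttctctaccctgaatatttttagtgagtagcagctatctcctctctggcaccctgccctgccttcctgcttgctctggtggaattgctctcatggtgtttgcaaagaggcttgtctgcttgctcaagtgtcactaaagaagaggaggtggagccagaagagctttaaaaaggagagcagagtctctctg
The Areg window holds TGACGTCA from base -61 to base -54 and TATAAA from base -31 to base -26, counted back from the start site. TGACGTCA is in 1.55% of the 32851 RefSeq promoter windows of that length, TATAAA in 12.4% and TGANTCA in 6.75%. None of the 3 motifs is in the Egf window shown, in a second Egf window further downstream, or in the windows of Tgfa, Btc and Egfr. RefSeq windows were at hand for 5 of the 7 members. A match is a description of the letters and not a binding site.

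Libraries stood apart in 3 ways that touch the results. Each sample description ends in a number after the letter S, and the numbers 1 to 13 occur once each, except that 3, 4 and 5 occur again on WT glycerol library 4 and on C3-/- glycerol libraries 1 and 3. The labels do not say what this number is. These 3 libraries are called S-number series 2 here, and the other 13, which include every PBS library, S-number series 1. Of the glycerol libraries, series 1 keeps C3-/- libraries 2 and 4 and WT libraries 1, 2 and 3. Every series 1 result with a glycerol group rests on these. On the first principal component of all tested genes (45.0% of the variance) the 3 libraries took the highest scores, and WT glycerol library 4 listed 3374 genes at 0, against 190 to 982 in the other 15. Transcripts of the Y-linked gene Ddx3y exceeded 100 normalized counts in all 8 WT libraries but in only 3 of the 8 C3-/- libraries (C3-/- glycerol 3 and 4, C3-/- PBS 4). Normalized counts summed to between 25810749 and 38388663 per library, with an unknown read depth behind them. Kidney markers were abundant in every library: the proximal tubule list summed to at least 33921 normalized counts and the thick ascending limb list to at least 28068.

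Levels are DESeq2-normalized counts as the authors deposited them. Differences were tested with limma on log2(normalized count + 1), fitted over the 18035 genes with at least 10 normalized counts in at least 4 libraries, and a gene was called at a Benjamini-Hochberg adjusted p below 0.05 over those genes. On this scale the fold change of a weakly expressed gene is understated. Ereg did not pass the filter on low values, and Areg passed it only through its glycerol libraries, so that Areg had to differ between treatments to be tested at all. In sections of whole kidney, fewer cells of a type and less RNA per cell cannot be told apart.

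Egf encodes the EGF precursor. It had 4419, 33348, 12484 and 14108 normalized counts in the 4 C3-/- glycerol libraries, against 56915, 62566, 61594 and 57360.5 in C3-/- PBS libraries. It had 1798, 770.5, 3398 and 180.4 normalized counts in the WT glycerol libraries, against 58289, 60979, 56029.7 and 65237 in WT PBS libraries. Every glycerol library was below every PBS library in both genotypes, every WT glycerol library was below every C3-/- glycerol library, and the PBS groups overlapped. WT glycerol mean Egf was 1537 ± 1409 against 60134 ± 3958 in WT PBS (SD, n = 4 each), so the WT PBS mean was 39.1 times the WT glycerol mean. The fall in WT was -5.96 ± 0.70 on the log2 scale (limma, adjusted p = 4.32e-05). In C3-/- libraries the log2 difference was -2.23 ± 0.70, with a 95% interval of -3.73 to -0.73, and it did not pass the threshold (limma, adjusted p = 0.0756). Leaving out the highest C3-/- glycerol library, library 2, gave -2.69 and a call (limma, adjusted p = 0.0356). Over all single left-out libraries the C3-/- difference ran from -2.69 to -1.72, with adjusted p from 0.0116 to 0.25 (limma).

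**Figure D1:**
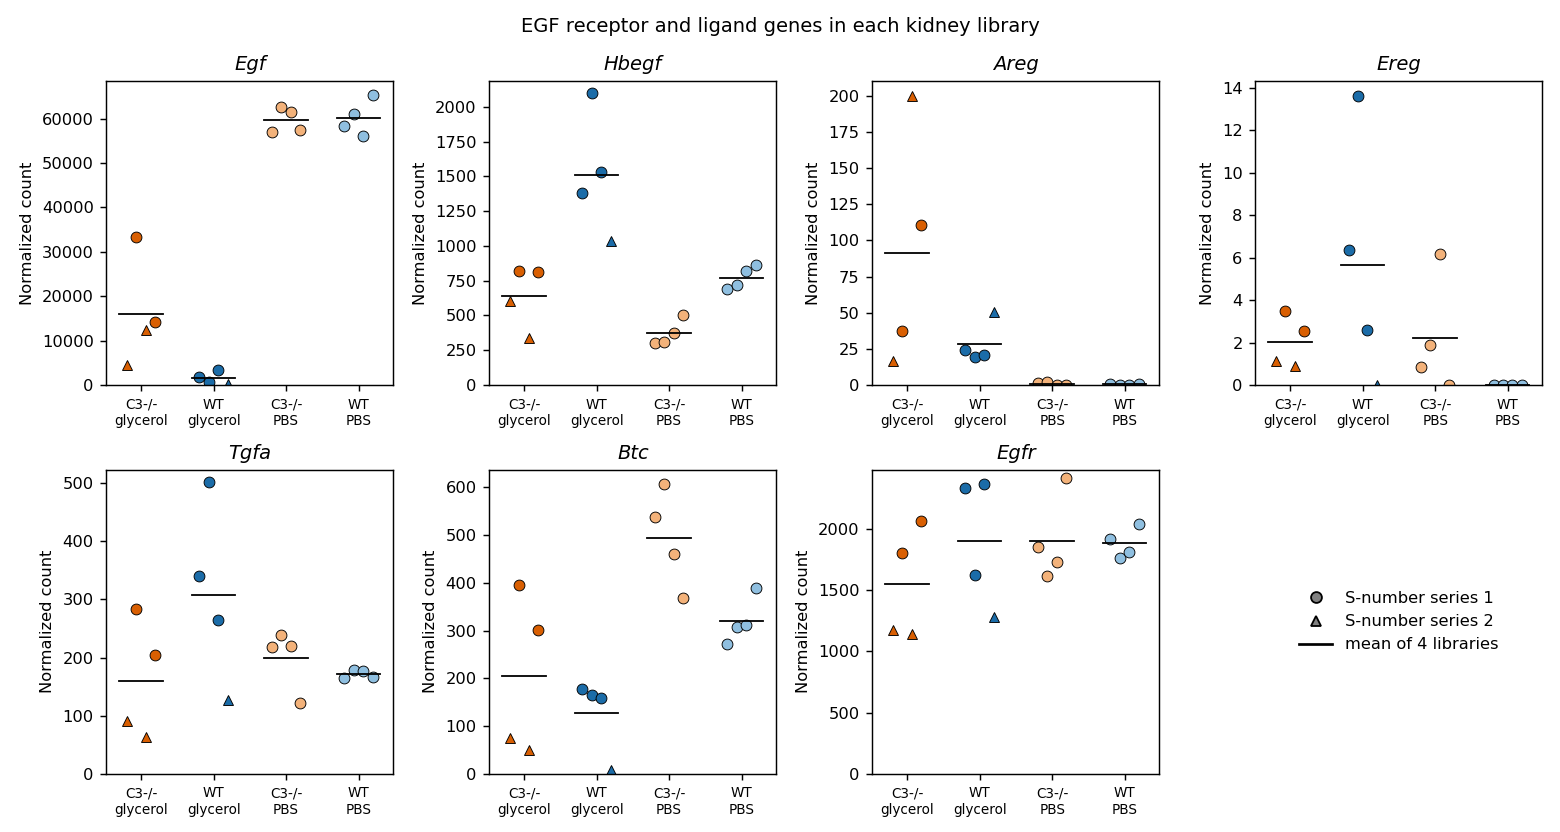
Normalized count (y axis, linear) of each member in every library, grouped along the x axis as C3-/- glycerol, WT glycerol, C3-/- PBS and WT PBS. Circles are libraries of S-number series 1, triangles are the 3 of series 2 and bars are means of 4 libraries. Egf sits lowest in WT glycerol (180.4 to 3398), Hbegf sits highest there (1038 to 2096), and the triangles are the lowest points of their group for Tgfa, Btc and Egfr.

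After glycerol, Egf was higher in C3-/- libraries than in WT libraries. The C3-/- glycerol mean was 16090 ± 12261, against 1537 ± 1409 in WT glycerol (SD, n = 4 each), a log2 difference of 3.72 ± 0.70 (limma, adjusted p = 0.00308). The test of the difference between the glycerol responses, C3-/- minus WT, gave 3.73 ± 0.99 and did not pass the threshold over 16 libraries (limma, adjusted p = 0.127). Within S-number series 1, which keeps only C3-/- glycerol libraries 2 and 4, the same difference was 3.70 ± 0.59 and passed (limma, adjusted p = 0.00387). In that series the Egf fall was -1.46 ± 0.44 in C3-/- libraries (limma, adjusted p = 0.0327) and -5.16 ± 0.39 in WT libraries (limma, adjusted p = 7.81e-07). With the S-number series as a covariate over 16 libraries the C3-/- difference was -1.10 ± 0.50 and was not called (limma, adjusted p = 0.156). In the authors' deposited table the fall in C3-/- libraries was -1.89 on the log2 scale (adjusted p = 0.0219). Egf in the 2 C3-/- glycerol libraries without Ddx3y was the lowest and the highest of the group.

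Hbegf encodes heparin-binding EGF-like growth factor, whose precursor is released by shedding after cell stress. It had 606.5, 817, 335 and 813 normalized counts in the C3-/- glycerol libraries, against 305, 309, 373 and 500.1 in C3-/- PBS libraries. It had 1382, 2096, 1529.5 and 1038 normalized counts in WT glycerol libraries, against 688, 719, 822 and 860.5 in WT PBS libraries. All WT glycerol libraries were above all WT PBS libraries, while the C3-/- groups overlapped through C3-/- glycerol library 3. Hbegf rose in WT by 0.93 ± 0.28 on the log2 scale (limma, adjusted p = 0.0241). That call was lost when every library was rescaled to the same total (adjusted p = 0.0564), and without WT glycerol library 2 (0.0797), WT PBS library 1 (0.0658) or WT PBS library 2 (0.0611). In C3-/- libraries the difference was 0.73 ± 0.28 (limma, adjusted p = 0.131). Within S-number series 1 it was 1.16 ± 0.20 in C3-/- libraries (limma, adjusted p = 0.00153) and 1.09 ± 0.18 in WT libraries (limma, adjusted p = 0.000228). In the authors' deposited table the C3-/- difference was 0.79 (adjusted p = 0.0432).

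Hbegf was lower in C3-/- than in WT libraries after glycerol. All 4 C3-/- glycerol libraries were below all 4 WT glycerol libraries, a log2 difference of -1.27 ± 0.28 (limma, adjusted p = 0.00825). All 4 C3-/- PBS libraries were below all 4 WT PBS libraries. There the log2 difference was -1.08 ± 0.28 and did not pass over 16 libraries (limma, adjusted p = 0.0632), but passed in the fit of S-number series 1, which holds the same 8 PBS libraries (limma, adjusted p = 0.00095). With S-number series and Ddx3y presence as covariates the PBS difference was -1.07 ± 0.25 (limma, adjusted p = 0.032). The difference between the glycerol responses was -0.19, with a 95% interval of -1.04 to 0.65, so the fold rise of Hbegf was not shown to differ between genotypes.

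Areg encodes amphiregulin, a ligand of low receptor affinity that ADAM17 releases. It had 16.3, 37.6, 200.2 and 110.5 normalized counts in the C3-/- glycerol libraries, against 1.70, 1.92, 0 and 0 in C3-/- PBS libraries. It had 24.5, 19.2, 20.7 and 50.2 normalized counts in WT glycerol libraries, against 0.871, 0, 0 and 0.999 in WT PBS libraries. Every glycerol library was above every PBS library, and the 2 glycerol groups overlapped. The log2 rise was 5.22 ± 0.68 in C3-/- libraries (limma, adjusted p = 0.000479) and 4.30 ± 0.68 in WT libraries (limma, adjusted p = 0.000433). With a pseudocount of 8 in place of 1 these were 3.03 and 2.04, and both were still called. Areg passed the filter on low values only through its glycerol libraries, so its calls between treatments are no support. Between the glycerol groups the C3-/- minus WT difference was 1.18 ± 0.68, with a 95% interval of -0.28 to 2.63 (limma, adjusted p = 0.314). The highest Areg value stood in C3-/- glycerol library 3, which had the lowest summed injured tubule markers of the 8 glycerol libraries (5752 normalized counts, against 14912 to 108967 in the other 7).

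Ereg, the gene of epiregulin, was close to the limit of detection. It had 1.11, 3.50, 0.876 and 2.55 normalized counts in the C3-/- glycerol libraries, against 0.847, 1.90, 6.16 and 0 in C3-/- PBS libraries. It had 6.38, 13.6, 2.57 and 0 normalized counts in WT glycerol libraries and was listed at 0 in all 4 WT PBS libraries, so no fold change is given. WT glycerol library 4, with Ereg at 0, is the library whose lowest value above 0 was 1.99, against at most 0.344 in the other 15. With no filter on low values, Ereg was called between WT glycerol and WT PBS (limma, adjusted p = 0.0465) and not in C3-/- libraries (limma, adjusted p = 0.892). In the authors' deposited table its WT difference had an adjusted p of 0.00248.

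Tgfa encodes TGF-alpha, a ligand that binds the EGF receptor alone of its family. It had 90.0, 284, 63.0 and 204 normalized counts in the C3-/- glycerol libraries, against 218, 239, 221 and 122 in C3-/- PBS libraries. It had 340.2, 501, 265 and 127 normalized counts in WT glycerol libraries, against 166, 179, 176 and 167 in WT PBS libraries. Both pairs of groups overlapped. The log2 difference was -0.52 ± 0.45 in C3-/- libraries (limma, adjusted p = 0.451) and 0.68 ± 0.45 in WT libraries (limma, adjusted p = 0.289). The 3 libraries of S-number series 2 were the lowest of their groups. Within S-number series 1 Tgfa rose in WT by 1.05 ± 0.24 (limma, adjusted p = 0.00294), and the C3-/- difference was 0.31 ± 0.28 (limma, adjusted p = 0.459).

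Btc encodes betacellulin, a ligand of the EGF receptor and of ErbB4. It had 74.2, 396, 48.8 and 300.3 normalized counts in the C3-/- glycerol libraries, against 538, 607, 460.1 and 369 in C3-/- PBS libraries. It had 177, 165, 159 and 8.42 normalized counts in WT glycerol libraries, against 273, 308, 312 and 389 in WT PBS libraries. All WT glycerol libraries were below all WT PBS libraries, while the C3-/- groups overlapped. The log2 difference was -1.74 ± 0.83 in C3-/- libraries (limma, adjusted p = 0.206) and -1.96 ± 0.83 in WT libraries (limma, adjusted p = 0.0945). Within S-number series 1, where the 3 lowest values drop out, the WT fall was -0.93 ± 0.17 (limma, adjusted p = 0.000567) and the C3-/- difference was -0.49 ± 0.19 (limma, adjusted p = 0.0847). With the S-number series as a covariate over 16 libraries the C3-/- difference was -0.14 ± 0.30 (limma, adjusted p = 0.809). Over all alternatives the C3-/- difference ran from -2.22 to -0.0082. Btc was higher in C3-/- than in WT libraries of S-number series 1 after glycerol, by 1.04 ± 0.20 (limma, adjusted p = 0.00267), and after PBS, by 0.61 ± 0.16 (limma, adjusted p = 0.0187). The 3 C3-/- PBS libraries without Ddx3y had the highest Btc of all PBS libraries, and the one with it lay inside the WT PBS range. With S-number series and Ddx3y presence as covariates the PBS difference was 0.23 ± 0.31 (limma, adjusted p = 0.755).

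Egfr, the receptor, was the steadiest member. It had 1178, 1805, 1142 and 2063 normalized counts in the C3-/- glycerol libraries, against 1849, 1612, 1728 and 2420.5 in C3-/- PBS libraries. It had 2338, 1623, 2367 and 1284 normalized counts in WT glycerol libraries, against 1916, 1760, 1815 and 2041 in WT PBS libraries. All groups overlapped. The log2 difference was -0.33 in C3-/- libraries, with a 95% interval of -0.83 to 0.17, and -0.03 in WT libraries, with a 95% interval of -0.53 to 0.47. Between genotypes it was -0.30 after glycerol, with a 95% interval of -0.80 to 0.20, and after PBS the 95% interval ran from -0.50 to 0.50. None of these 4 differences passed the threshold with limma over 16 libraries.

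Across the members, 3 of the 6 tested were called in WT (Areg and Hbegf higher, Egf lower), where 25.9% of all tested genes were called with limma (12.5% higher and 13.3% lower). Areg alone of the 6 was called in C3-/- libraries, against 5.63% of all tested genes (3.68% higher and 1.96% lower). Between genotypes after glycerol 2 of 6 were called (Egf higher and Hbegf lower in C3-/- libraries), against 11.2% of all tested genes (6.38% higher and 4.85% lower). After PBS none of the 6 was called at the adjusted threshold, against 2.23% of all tested genes (1.04% higher and 1.19% lower), and Hbegf alone had an unadjusted p under 0.05. None of the 6 was called for the difference between responses, against 0.438% of all tested genes (0.222% higher and 0.216% lower), and Egf alone had an unadjusted p under 0.05. Over the 13 libraries of S-number series 1, 5 of 6 were called in WT, against 56.2% of genes, and 3 of 6 in C3-/- libraries, against 23.3%. There 3 of 6 were called between genotypes after glycerol, against 30.4%, 2 of 6 after PBS, against 19.5%, and 1 of 6 for the difference between responses, against 10.4%. These counts include Areg, which entered through its glycerol values, so its calls between treatments are no support. Comparisons that share a group share its libraries.

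**Figure D2:**
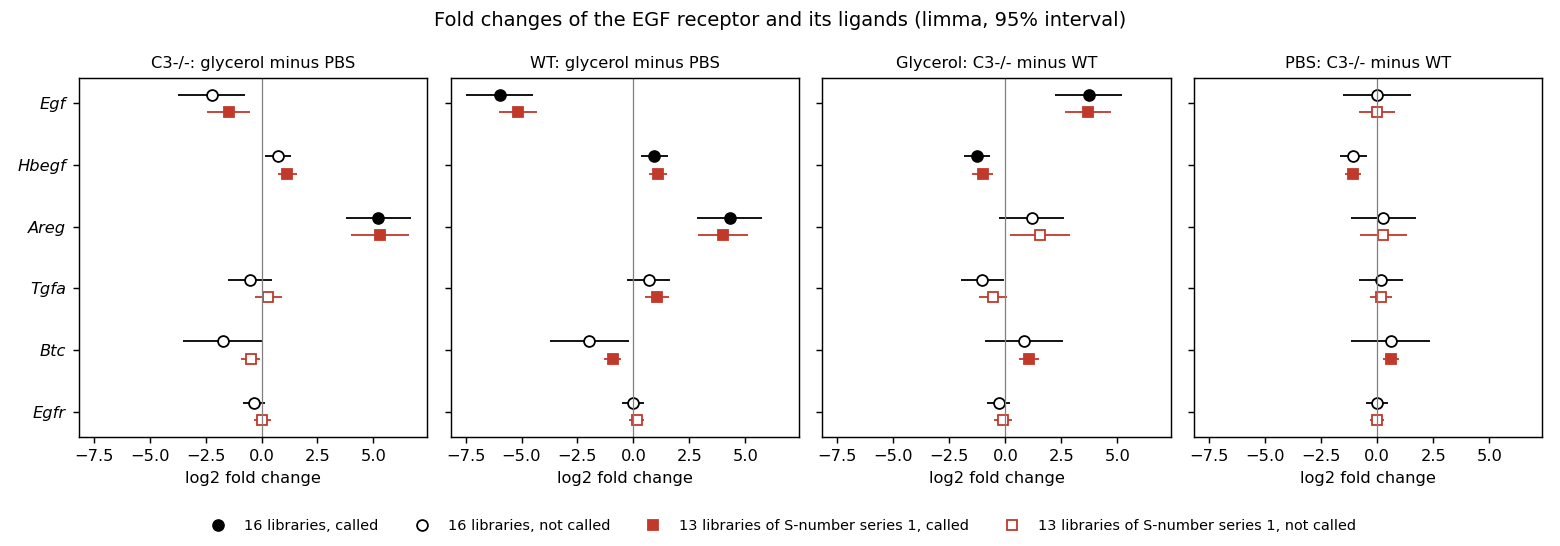
Log2 fold change on the log2(normalized count + 1) scale (x axis, points, with 95% intervals) of the 6 tested members in 4 comparisons, for all 16 libraries (circles) and for the 13 of S-number series 1 (squares); filled symbols passed an adjusted p of 0.05. Egf lies near -5.96 in WT and -2.23 in C3-/- libraries, and Egfr stays near 0 in every panel. Of the C3-/- glycerol libraries the squares use only libraries 2 and 4.

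Ranges over libraries were also compared. Of the 7 members, 4 did not overlap between WT glycerol and WT PBS (Egf, Hbegf, Areg and Btc), against 37.5% of all genes. Between C3-/- glycerol and C3-/- PBS 2 did not overlap (Egf and Areg), against 17.7% of all genes. Between the glycerol groups 2 did not overlap (Egf and Hbegf), against 10.9% of all genes, and between the PBS groups 1 did not (Hbegf), against 24.9%.

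Levels were also divided by the kb of merged annotated exons of each gene, which need not be the length of the transcripts expressed. On this scale Egf was the most abundant member in every group but WT glycerol. It averaged 1427 ± 1087 normalized counts per kb in C3-/- glycerol, 136 ± 125 in WT glycerol, 5287 ± 256 in C3-/- PBS and 5333 ± 351 in WT PBS (SD, n = 4 each). In WT glycerol libraries the level per kb ran Hbegf (313 ± 91.2), Egfr (168 ± 47.4), Egf (136 ± 125), Tgfa (47.5), Btc (28.2), Areg (23.6) and Ereg (1.37). In that order Hbegf stood apart from Egfr and Areg from Ereg, and all other neighbours overlapped in range. In WT PBS libraries the level per kb ran Egf, Egfr (166 ± 10.9), Hbegf (160 ± 17.0), Btc (70.9 ± 10.9), Tgfa (26.5 ± 1.03), Areg and Ereg, and only Egfr with Hbegf and Areg with Ereg overlapped. In C3-/- glycerol libraries the level per kb ran Egf, Egfr, Hbegf, Areg, Btc, Tgfa and Ereg, with overlap between every pair of neighbours from Egfr to Tgfa. In C3-/- PBS libraries it ran Egf, Egfr, Btc, Hbegf, Tgfa, Areg and Ereg, with overlap of Btc with Hbegf and of Areg with Ereg.

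The summed level of the 6 ligands per kb was lower in every glycerol library than in every PBS library. The sum was 561 to 3290 normalized counts per kb in C3-/- glycerol libraries and 293 to 712 in WT glycerol libraries, against 5265 to 5786 in C3-/- PBS and 5236 to 6077 in WT PBS libraries. Egf made up 69.8% to 89.9% of that sum in C3-/- glycerol libraries and 5.45% to 42.4% in WT glycerol libraries, against 94.9% to 96.2% over the 8 PBS libraries. Hbegf made up 5.09% to 22.3% in C3-/- glycerol and 44.5% to 73.1% in WT glycerol libraries, against 1.10% to 1.96% in C3-/- PBS and 2.63% to 3.25% in WT PBS libraries. Hbegf was above Egf per kb in 4 of 4 WT glycerol libraries and in 0 of 4 libraries of each other group. That order depends on the exon lengths used (11.275 kb for Egf, 4.834 kb for Hbegf). Before division, Egf had the higher count in WT glycerol libraries 1 and 3 (1798 and 3398, against 1382 and 1529.5). It had the lower count in libraries 2 and 4 (770.5 and 180.4, against 2096 and 1038). The shares of C3-/- glycerol and WT glycerol libraries did not overlap for either gene. These are shares of transcript signal and not of released protein.

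**Figure D3:**
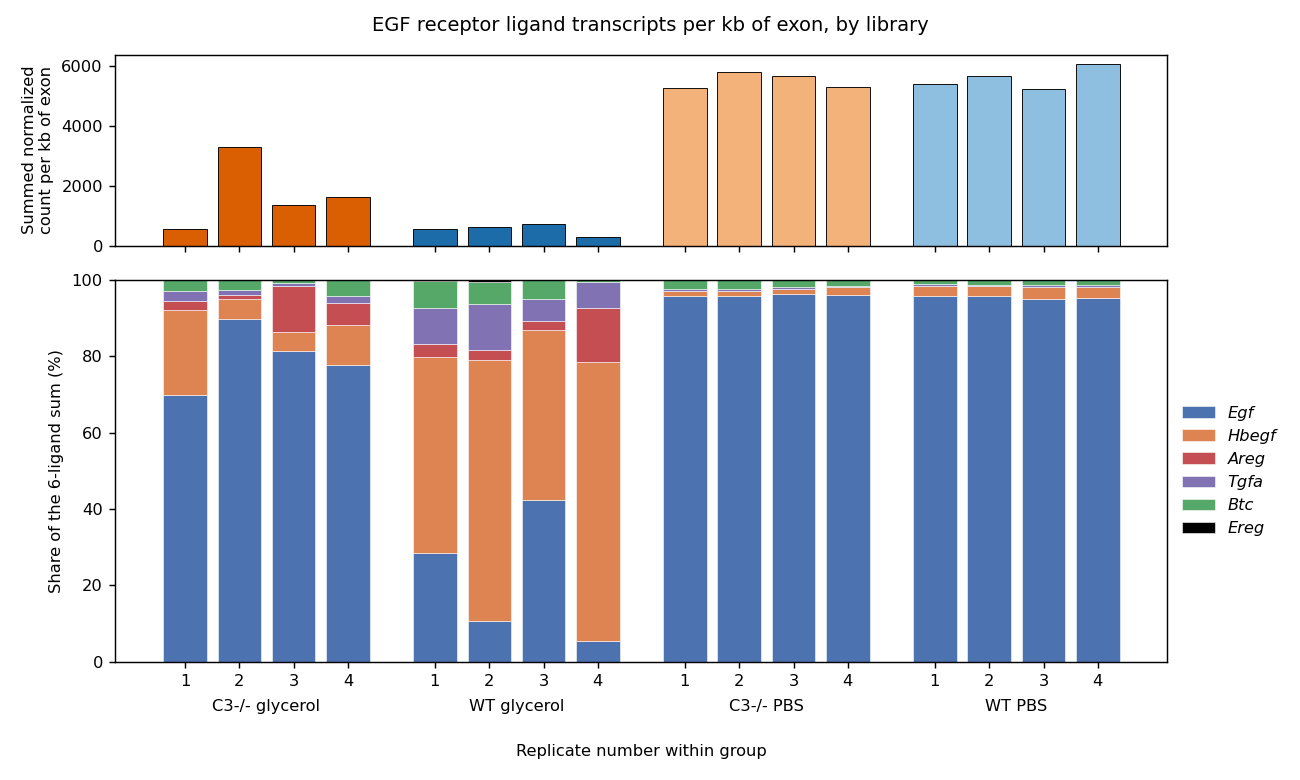
Top, summed normalized count per kb of exon of the 6 ligands (y axis) in each library; bottom, the share of each ligand in that sum in percent (y axis), for replicates 1 to 4 of each group. Egf fills at least 94.9% of every PBS bar, at least 69.8% of every C3-/- glycerol bar and at most 42.4% of every WT glycerol bar, where Hbegf is the largest share.

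The fall of Egf was set beside markers of the segments known to make it. In WT, 5 of 8 thick ascending limb genes fell (list median -1.61, against -0.11 over all tested genes), and 4 of 7 genes of the distal convoluted and connecting tubule fell (list median -0.78). The falls included the cotransporter gene Slc12a1 (-3.22 ± 0.31, limma, adjusted p = 8.13e-06), Tmem207 (-4.12 ± 0.52) and the calcium buffer genes Pvalb (-4.04 ± 0.57) and Calb1 (-2.19 ± 0.26). Trpv5, a distal calcium channel gene, went the other way in WT, by 0.28 ± 0.47 over 16 libraries (limma, adjusted p = 0.68), and was called higher in S-number series 1 (0.71 ± 0.11, limma, adjusted p = 0.000176). Umod, which encodes uromodulin, differed by -1.01 ± 0.53 (limma, adjusted p = 0.177) and Slc12a3, the thiazide-sensitive cotransporter gene, fell by 0.78 (limma, adjusted p = 0.0177). Genes of other segments fell in WT as well, 10 of 11 of the proximal tubule (list median -2.09) and 4 of 8 of the collecting duct (list median -0.76), while 25.9% of all tested genes were called. In C3-/- libraries 2 of 11 proximal tubule genes fell (list median -1.33) and 0 of 8 collecting duct genes were called. Of all tested genes only 5.63% were called in C3-/- libraries (1.96% lower). None of the 15 markers had a WT log2 difference as large as that of Egf. Of the 8 thick ascending limb genes 0 were called in C3-/- libraries (list median -0.46, against -0.06 over all tested genes; 2 had an unadjusted p under 0.05) and 1 of 7 distal tubule genes was (Calb1, -1.37 ± 0.26). These single marker genes were picked after their values were seen.

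Relative to Umod, Egf was 6.08% to 25.5% in C3-/- glycerol libraries and 0.649% to 2.93% in WT glycerol libraries, against 43.3% to 47.3% in C3-/- PBS and 40.1% to 41.7% in WT PBS libraries. Relative to the summed thick ascending limb list it was 2.94% to 14.3% in C3-/- glycerol and 0.584% to 2.49% in WT glycerol libraries, against 23.1% to 28.1% in C3-/- PBS and 25.5% to 26.8% in WT PBS libraries. On both ratios the glycerol and PBS libraries of each genotype did not overlap, and neither did the 2 glycerol groups. Umod has the highest count of that list, so the 2 ratios are not independent. Relative to Slc12a1 the 2 glycerol groups overlapped. Egf was 4419 beside 61938 for Slc12a1 in C3-/- glycerol library 1, a smaller share than 3398 beside 10405 in WT glycerol library 3. After glycerol, 5 of 8 thick ascending limb genes were higher in C3-/- than in WT libraries (list median 1.17, against 0.04 over all tested genes), and 2 of 7 distal tubule genes were. In the same comparison 4 of 8 collecting duct genes were higher (list median 0.72) and 0 of 11 proximal tubule genes were called (list median 1.07). Over all tested genes 6.38% were called higher there. Slc12a1 differed by 2.82 ± 0.31 there (limma, adjusted p = 3.46e-05), and its difference between the responses was 2.55 ± 0.44 (limma, adjusted p = 0.0153).

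**Figure D4:**
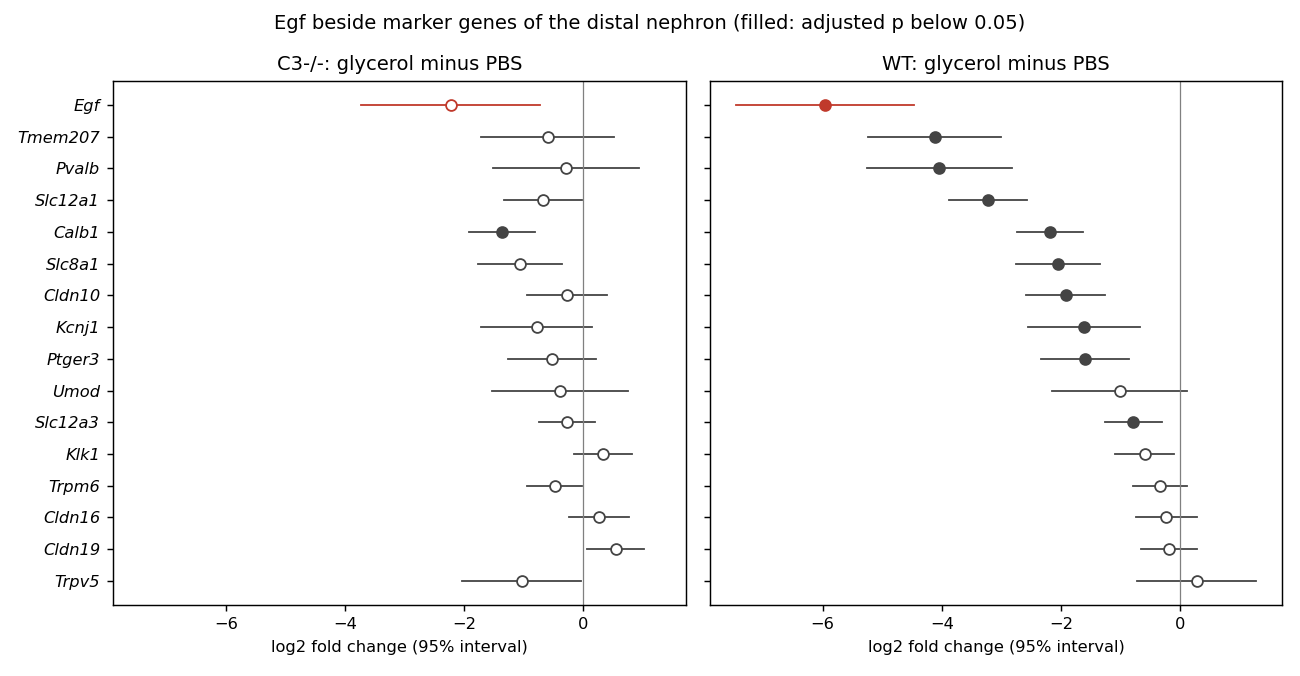
Log2 fold change of glycerol over PBS (x axis, points, with 95% intervals) for Egf and 15 marker genes of the thick ascending limb and distal tubule, in C3-/- libraries (left) and WT libraries (right). Egf lies furthest from 0 in both panels (-2.23 in C3-/- and -5.96 in WT libraries). Filled points, meaning called, are 9 of the 15 markers in WT against 1 in C3-/- libraries. Of all tested genes 25.9% were called in WT and 5.63% in C3-/- libraries.

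Of the marker lists of other cells, those of injured tubule, collecting duct and neutrophils did not overlap between the glycerol groups. Those of proximal tubule, fibroblasts, macrophages, urothelium, podocytes, endothelium and T cells did. The collecting duct list (8 of 8) summed to 10586 to 18751 normalized counts in C3-/- glycerol and 6584 to 10353 in WT glycerol libraries. In PBS libraries it summed to 16539 to 24805 in C3-/- and 13819 to 16781 in WT. The injured tubule list (8 of 8 genes in the matrix, none at 0 in any library) summed to 5752 to 23281 normalized counts in C3-/- glycerol and 66637 to 108967 in WT glycerol libraries, against 3374 to 3820 in C3-/- PBS and 3480 to 3777 in WT PBS libraries. The fibroblast and smooth muscle list (8 of 8) summed to 5048 to 12462 in C3-/- glycerol and 12334 to 22234 in WT glycerol libraries, against 5856 to 7242 in C3-/- PBS and 8886 to 12703 in WT PBS libraries. The neutrophil list (7 of 8, with Mmp8 at 0 in 5 libraries, Retnlg in 2 and Cxcr2 in 1) summed to 77.9 to 246 in C3-/- glycerol and 536 to 1232 in WT glycerol libraries, against 41.3 to 64.5 in C3-/- PBS and 154 to 248 in WT PBS libraries. The macrophage list (8 of 8) summed to 3961 to 7267 in C3-/- glycerol and 5078 to 7225 in WT glycerol libraries, against 3514 to 4785 in C3-/- PBS and 4102 to 4459 in WT PBS libraries. The urothelium list (7 of 7), a possible contaminant of kidney sections, overlapped between all groups, with sums of 77.8 to 911. Their part in the levels of Egf, Hbegf and the other members was not tested.

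The other ErbB receptors and ligands were measured beside the members. Of the 3 other receptors 1 was called in each glycerol comparison: Erbb3, which has little kinase activity of its own, fell by 1.12 in C3-/- libraries (limma, adjusted p = 0.00683) and by 0.91 in WT libraries (limma, adjusted p = 0.00665). Erbb2, the partner receptor with no ligand of its own, differed by -0.34 ± 0.23 in C3-/- and -0.31 ± 0.23 in WT libraries and was not called. Erbb4 differed by -0.82 ± 0.78 in C3-/- and -1.21 ± 0.78 in WT libraries and was not called. Over all tested genes 5.63% were called in C3-/- and 25.9% in WT libraries. Of 5 other ligands, 3 were in the matrix and 2 were tested. Nrg1, the neuregulin that binds ErbB3 and ErbB4, averaged 996 normalized counts in C3-/- glycerol and 1383 in WT glycerol libraries, against 121 in C3-/- PBS and 216 in WT PBS libraries. It rose by 2.98 ± 0.22 in C3-/- libraries (limma, adjusted p = 5.11e-06) and by 2.67 ± 0.22 in WT libraries (limma, adjusted p = 2.8e-06), and Nrg4 was called in neither.

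Among 11 genes of ligand shedding, 4 rose and 1 fell in WT (list median 1.21, against -0.11 over all tested genes), where 25.9% of all tested genes were called. Adam8, a metalloprotease gene, rose by 3.31 ± 0.34, Rhbdf2, whose product iRhom2 carries ADAM17 to the cell surface, by 1.49 ± 0.29, and Rhbdl2, an intramembrane protease gene, by 1.49 ± 0.40. Adam12 rose by 1.25 ± 0.38, and Timp3, which encodes an inhibitor of ADAM17, fell by 1.62. Adam17 itself differed by 0.52 ± 0.29 in WT (limma, adjusted p = 0.194) and Adam10 by 0.12 ± 0.29. Of the 11, 1 rose in C3-/- libraries (Rhbdf2, 1.05 ± 0.29, limma, adjusted p = 0.0454), where 5.63% of all tested genes were called. The list median there was -0.06, against -0.06 over all tested genes. After glycerol 4 of the 11 were lower in C3-/- than in WT libraries: Rhbdl2 (-3.57 ± 0.40), Adam12 (-3.14 ± 0.38), Adam8 (-2.94 ± 0.34) and Adam19 (-1.45 ± 0.34). Over all tested genes 11.2% were called in that comparison. Rhbdl2 was also lower in C3-/- than in WT libraries after PBS (-2.01 ± 0.40, limma, adjusted p = 0.013). In S-number series 1 the WT count was 8 higher and 1 lower, against 56.2% of all tested genes called. The count between genotypes after glycerol was 8 lower there, against 30.4%. Adam12, Adam17 and Adam10 were named after their values were seen.

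Among 20 genes of the receptor's signal relay, 5 rose and 3 fell in WT (list median 0.16), where 25.9% of all tested genes were called. The rises were those of Pik3r1, the regulatory subunit of PI3K (1.70 ± 0.29), Nras (1.33 ± 0.15), Hras, Akt1 (0.95 ± 0.16) and Shc1, and the falls those of Gab1, Pik3ca, the catalytic subunit of PI3K (-0.89 ± 0.21), and Plcg1. Pik3ca alone of the 20 was called in C3-/- libraries (-0.74 ± 0.21, limma, adjusted p = 0.0496), where 5.63% of all tested genes were called. The list median there was -0.28. After glycerol Pik3r1 (-2.38 ± 0.29), Nras (-0.99 ± 0.15) and Akt1 (-0.55 ± 0.16) were lower in C3-/- than in WT libraries (list median -0.21). These are 3 of 20 genes, against 11.2% of all tested genes called in that comparison. The difference between the responses was called for Pik3r1 (-2.39 ± 0.41, limma, adjusted p = 0.0161). Map2k1 and Map2k2, genes of the kinases that activate ERK, were called in none of the 5 comparisons with limma over 16 libraries. In S-number series 1, where 56.2% of all tested genes were called in WT, the WT count was 10 higher and 7 lower. Between genotypes after glycerol the count in that series was 3 higher and 6 lower, against 30.4% of all tested genes.

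Genes that answer to ERK activity were described as transcript levels only, since no phosphorylated protein was measured. Of 18 ERK-responsive genes, 6 rose and 0 fell in C3-/- libraries (list median 1.34), and 9 rose and 1 fell in WT libraries (list median 1.45). Both counts and medians include Fosl1, an AP-1 subunit gene that passed the filter on low values only through its glycerol libraries, so its calls are no support. Over all tested genes 5.63% were called in C3-/- and 25.9% in WT libraries. Fosl1 had 8.68 to 2825 normalized counts in C3-/- glycerol and 349 to 1298 in WT glycerol libraries, against 0 to 3.13 in C3-/- PBS and 0 to 3.11 in WT PBS libraries. Maff, a small Maf factor gene, rose by 2.71 ± 0.35 in C3-/- and 3.72 ± 0.35 in WT libraries. Plaur, the urokinase receptor gene, rose by 2.53 ± 0.42 in C3-/- and 3.72 ± 0.42 in WT libraries, and Myc by 3.01 ± 0.29 in C3-/- and 3.17 ± 0.29 in WT libraries. Of Maff, Plaur and Myc, the highest adjusted p with limma was that of Plaur, 0.0026 in C3-/- and 3.14e-05 in WT libraries. Fos and Egr1, the earliest of the class to respond in cultured cells, were not called in either genotype, and Etv5 fell in WT by 0.72. After glycerol 4 of 18 were lower in C3-/- than in WT libraries: Egr2 (-3.21 ± 0.59), Klf6 (-2.14 ± 0.45), Maff (-1.54 ± 0.35) and Jun (-0.85 ± 0.24), with a list median of -0.74. Over all tested genes 11.2% were called in this comparison. The call of Jun there was lost in S-number series 1 (limma, adjusted p = 0.0891). The list count in that series was 1 higher and 5 lower, against 30.4% of all tested genes called. After PBS 3 of 18 were lower in C3-/- than in WT libraries: Fosb (-3.50 ± 0.76), Egr3 (-1.96 ± 0.48) and Jun (-1.12 ± 0.24). Over all tested genes 2.23% were called after PBS (1.19% lower). The list median there was -0.65, against 0.02 over all tested genes. Egr3 had 12.9 to 31.8 normalized counts in WT PBS libraries, against 1.36 to 10.4 in C3-/- PBS and 5.35 to 8.43 in C3-/- glycerol libraries. It passed the filter on low values only through its WT libraries, so its call between genotypes is no support. The count after PBS and the list medians between genotypes include it. Fos, Egr1 and Etv5 were named after their values were seen.

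Of 19 feedback genes, 1 rose and 0 fell in C3-/- libraries (list median -0.20), and 3 rose and 0 fell in WT libraries (list median -0.10). Of all tested genes 5.63% were called in C3-/- and 25.9% in WT libraries. In S-number series 1 the list had 2 higher and 1 lower in C3-/- libraries, against 23.3% of all tested genes called. In WT libraries it had 5 higher and 3 lower there, against 56.2%. Dusp5, a nuclear ERK phosphatase gene, rose by 3.11 ± 0.41 in C3-/- libraries (limma, adjusted p = 0.000523) and 3.27 ± 0.41 in WT libraries (limma, adjusted p = 7.3e-05). In WT Spred3 (2.73 ± 0.27) and Spry2 (0.99 ± 0.23), genes of RAS-ERK inhibitors, rose too. After glycerol Spred3 (-1.58 ± 0.27), Spry1 (-1.35 ± 0.29) and Dusp5 (-1.34 ± 0.41, limma, adjusted p = 0.0484, and 0.0998 in S-number series 1) were lower in C3-/- than in WT libraries. Spry1 was lower after PBS too (-1.24 ± 0.29, limma, adjusted p = 0.0373), and its difference between the responses was -0.11 ± 0.41 (limma, adjusted p = 0.985). The difference between the responses was called for Spred3 (-1.94 ± 0.38, limma, adjusted p = 0.0392). Between genotypes after glycerol 3 of 19 were called, against 11.2% of all tested genes. In S-number series 1 that count was 1 higher and 5 lower, against 30.4%. After PBS it was 0 higher and 6 lower in that series, against 19.5%. Errfi1, whose product binds and blocks the receptor, differed by -0.87 ± 0.34 in C3-/- and -0.71 ± 0.34 in WT libraries and was called in neither.

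Distal magnesium handling, a known target of EGF, was followed with 10 tested genes of 11. In C3-/- libraries 1 fell, Trpm7 (-0.53 ± 0.14, limma, adjusted p = 0.0433; list median -0.03), and in WT libraries 3 fell, among them Trpm7 (-0.78 ± 0.14) and Pcbd1 (-1.07 ± 0.25), with a list median of -0.28. Trpm6, the channel that EGF acts on, differed by -0.48 ± 0.21 in C3-/- libraries (limma, adjusted p = 0.18) and -0.34 ± 0.21 in WT libraries (limma, adjusted p = 0.26). Cldn19, a claudin of the thick ascending limb, was higher in C3-/- than in WT libraries after glycerol (1.07 ± 0.22, limma, adjusted p = 0.00603). In S-number series 1 the WT count was 1 higher and 4 lower. Of all tested genes 5.63% were called in C3-/- and 25.9% in WT in the fit of 16 libraries, and 56.2% in WT in S-number series 1.

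**Figure D5:**
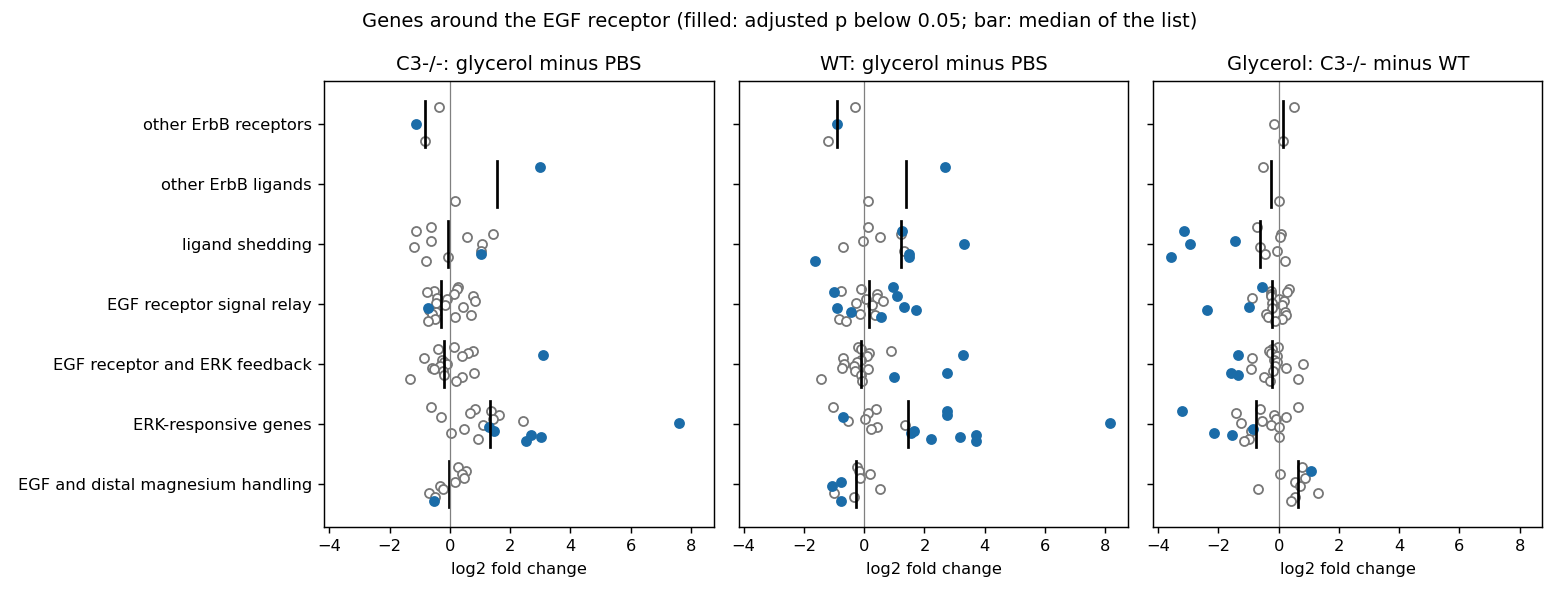
Log2 fold change (x axis) of every tested gene of 7 lists around the EGF receptor, for glycerol over PBS in C3-/- libraries (left) and WT libraries (middle) and for C3-/- over WT libraries after glycerol (right); filled points passed an adjusted p of 0.05 and bars are list medians. The ERK-responsive genes have medians of 1.34 in C3-/- and 1.45 in WT libraries. Every filled point of the shedding, relay, feedback and ERK-responsive lists lies below 0 in the right panel. That holds for the 16 libraries shown, where 11.2% of all tested genes were called. In S-number series 1 the relay, feedback and ERK-responsive lists also have genes called higher in that comparison.

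For each member the genes with the most similar profile, up to 3, were found over the 16 libraries, by the root mean square difference of log2(normalized count + 1) after centring each gene on its own mean. Closest to Egf were Dnah11 (0.74), A4gnt (0.78) and Ranbp3l (0.94), where Egf itself had a root mean square of 2.61 about its mean. Dnah11 averaged 57.6 normalized counts in C3-/- glycerol and 3.77 in WT glycerol libraries, against 195 in C3-/- PBS and 114 in WT PBS libraries. Closest to Hbegf were Hsp90aa1 (0.25), Sema3c (0.26) and Ddit4 (0.28), against 0.80 for Hbegf itself, and closest to Areg were Trib3 (0.97), Cbr3 (1.22) and Atf5 (1.23), against 2.57. Trib3 averaged 1378 normalized counts in C3-/- glycerol and 490 in WT glycerol libraries, against 27.1 in C3-/- PBS and 16.6 in WT PBS libraries, so it shared with Areg the higher mean in C3-/- glycerol. Closest to Tgfa were Efna5 (0.22), Ppp2cb (0.23) and Armcx4 (0.24), and closest to Btc were Scn4b (0.35), Slit2 (0.37) and Scel (0.37). Closest to Egfr were Atp6v1b2 (0.12) and Gng12 (0.13), against 0.32 for Egfr itself. For Ereg, near its detection limit, they were Adgrf1 (0.68) and Vcan (0.70), against 1.21. The libraries share groups, so closeness follows the group means and says nothing of shared control.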

How the data were processed

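Kidney RNA-seq libraries were grouped by the genotype and treatment in their titles. The authors' matrix holds signal per gene, read counts normalized with DESeq2 in R 3.6.1 after alignment with STAR 2.7.1 to GRCm38, per the submitters' processing notes, with Ensembl release 96 gene models per the file headers. They also deposited 3 comparison tables with log2 fold changes, test scores, p-values and adjusted p-values per gene. The counting program is not given in these sources. Values were not whole multiples of a common step (at most 2.11% were, within 0.01), so reads were not recovered, read depth stays unknown and count models were not used.

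From the matrix, log2(value + 1) was fitted in limma 3.58.1 (R 4.3.3) with 1 coefficient per group over all 16 libraries, a mean-variance trend and two-sided moderated tests. Genes entered with at least 10 in at least 4 libraries. P-values were adjusted by Benjamini-Hochberg within each contrast, across 18035 genes. The script was tested on simulated data. Lengths are merged exons of GENCODE M21, and promoter windows come from RefSeq. Members, gene lists and marker lists were chosen with earlier results of these data known. Beyond the members, up to 4 genes per list with the smallest p in a comparison were named, others as stated; a few genes that this rule names are not reported here. Alternatives covered pseudocount, filter, scaling, trend, library weights, replicate block, S-number series, covariates and each left-out library. No column of the matrix was left unused.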

Additional observations from a re-analysis of the deposited data

Results flagged for a closer look

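Among 28 sets of 4 libraries (7 members in 4 groups), 2 held a library whose gap to the nearest other exceeded Dixon's 95% critical value. The gap was taken as a share of the group's range on the log2(normalized count + 1) scale. It was not tested on the plain counts given here. Chance alone passes about 1 set in 20. Tgfa was 122.3 normalized counts in C3-/- PBS library 4, the lowest of that group, with a gap of 0.86 of the range on that log2 scale. That library is the only C3-/- PBS library with Ddx3y transcripts, and it also had the lowest Btc and the highest Hbegf and Egfr of its group. Btc was 8.4 normalized counts in WT glycerol library 4, the lowest of that group, with a gap of 0.965 of the range on that log2 scale. That library is of S-number series 2 and listed 3374 genes at 0. Whether these features of the 2 libraries set the values was not tested.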

How the results depend on the processing

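Of 835 values of the members under alternatives, 754 kept their direction and side of the threshold, 39 passed it newly, 4 no longer passed and 38 changed sign. The 4 lost calls are those of Hbegf in WT given above, and no called member changed sign. Depth is unknown, which limits Areg and Ereg most. For each reversal and each moved count below the cause was not tested, except that fewer libraries or genes enter some fits by construction. Library weights (0.037 to 4.8) came from an estimate that stopped before it converged.

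Called genes were counted as higher then lower. In WT, 2262 and 2404 became 5180 and 5722 with library weights, 4736 and 5189 in S-number series 1, 3961 and 4378 with the series as covariate, and 4167 and 4719 with series and Ddx3y as covariates. In C3-/- libraries, 663 and 353 became 2757 and 2832 with weights, 2213 and 1905 in series 1, 1524 and 1084 with the series covariate and 1865 and 1528 with both covariates, and the lower count was 224 at equal totals. For C3-/- against WT after glycerol, 1150 and 875 became 688 and 574 with only genes averaging 100 or more, 3290 and 3149 with weights, 2774 and 2599 in series 1, 3258 and 2462 with the series covariate and 3482 and 2586 with both. After PBS, 187 and 215 became 92 and 111 with that filter, 3486 and 3383 with weights, 1652 and 1796 in series 1 and 685 and 825 with the series covariate, and the lower count was 380 with both. For the difference of responses, 40 and 39 became 26 and 16 at equal totals, 1632 and 1593 with weights, 882 and 963 in series 1, 722 and 602 with the series covariate and 897 and 683 with both. There the higher count was 22 with the mean filter and the lower count 82 with a pseudocount of 8.

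Leaving out 1 library at a time gave 1689 to 2552 higher and 1740 to 2786 lower in WT, 363 to 1453 and 128 to 1332 in C3-/- libraries, 806 to 2202 and 555 to 2165 for C3-/- against WT after glycerol, 90 to 288 and 110 to 326 after PBS, and 23 to 106 and 13 to 105 for the difference of responses. Calls of members were gained without WT glycerol library 4 for Egf (adjusted p = 0.0116) and Btc (0.0348) in C3-/- libraries, for Tgfa between genotypes after glycerol (0.0305) and for Hbegf after PBS (0.0356). They were gained without WT glycerol library 3 for Egf in C3-/- libraries (0.0486) and in the difference of responses (0.0493), without C3-/- glycerol library 3 for Hbegf in C3-/- libraries (0.0173) and after PBS (0.0152), and without C3-/- PBS library 4 for Hbegf after PBS (0.0359), all with limma.

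Log2 differences that changed sign were close to 0 or uncalled over 16 libraries. Egfr in WT was 0.0469 at equal totals, 0.2941 with weights (limma, adjusted p = 0.0118), 0.145 in series 1 and 0.1507 with either covariate set, and -0.1487 to 0.145 over the left-out libraries. Tgfa in C3-/- libraries was 0.2221 with weights, 0.3097 in series 1, 0.2702 with the series covariate and 0.4348 with both. Egfr there was 0.0529, 0.0382 and 0.0297 under the first 3 of these. After glycerol, Btc between genotypes ran from -0.2062 (without WT glycerol 4) to 1.3486 over the left-out libraries and Egfr 0.004 with both covariates. After PBS, Egf was 0.0674 at equal totals, 0.0002 at equal 75th percentiles, 0.0202 with both covariates and -0.0448 to 0.0284 over the left-out libraries. Egfr was 0.0785, 0.0113 and 0.1878 under the same 3 settings and -0.1221 to 0.0732 over the left-out libraries, and Tgfa was -0.3229 with both covariates. In the difference of responses, Hbegf was 0.2983 with weights, 0.0679 in series 1 and -0.3588 to 0.0914 over the left-out libraries, and Btc was -0.8149 to 0.7399 over them.

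Groups share replicate numbers in the labels, but same-numbered libraries did not deviate together (correlations of -0.69 to 0.38), so the numbers were not taken as pairs. With the replicate number as a block, C3-/- libraries had 428 genes higher and 204 lower, and the difference of responses 23 higher and 18 lower. No member changed its call under the block: in WT the adjusted p was 0.000283 for Egf and 0.0413 for Hbegf, after glycerol 0.00779 for Egf and 0.0187 for Hbegf between genotypes, and in C3-/- libraries 0.121 for Egf, all with limma.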

Other observations

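The stretch of chromosome 5 between Areg and Btc holds a long non-coding RNA gene, Gm19619 (chr5:91257571-91283421, minus strand), chosen after its values were seen. It averaged 9.0 normalized counts in C3-/- glycerol and 9.56 in WT glycerol libraries, against 0.238 in C3-/- PBS libraries, and was listed at 0 in WT PBS libraries. Epgn, the gene of another EGF receptor ligand, lies upstream of Ereg (chr5:91027464-91035215) and is absent from the matrix.

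Havcr1 did not overlap between the glycerol groups. Havcr1, the kidney injury molecule gene, averaged 4394 ± 3565 normalized counts in C3-/- glycerol and 46255 ± 13049 in WT glycerol libraries, against 17.6 ± 6.93 in C3-/- PBS and 46.0 ± 33.2 in WT PBS libraries (SD, n = 4 each). Red cell transcripts (5 of 5 genes) summed to 15818 to 19472 in C3-/- glycerol and 12699 to 26399 in WT glycerol libraries, against 3330 to 7822 in C3-/- PBS and 13841 to 22603 in WT PBS libraries.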
